A study of Homo sapiens with 12 samples.

Results

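The effect of losing the acetyltransferase CREBBP on H3K27ac was followed in SUDHL4, a human diffuse large B-cell lymphoma line of the germinal-centre type. The comparison used the peak lists of 4 single clones, 2 without CREBBP and 2 controls, out of 6 immunoprecipitated libraries and 12 samples in the series. The rule for the members uses the genotype label: every immunoprecipitated library labelled as a CREBBP knock-out or as a control entered. All positions are on hg19, and all counts are for chromosomes 1 to 22.

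CREBBP and its paralogue EP300 transfer acetyl groups to histones and to transcription factors, and acetylated lysine 27 of histone H3 (H3K27ac) marks active promoters and enhancers. In germinal-centre B cells CREBBP acetylates enhancers of genes used in antigen presentation and in exit from the germinal centre, and BCL6 with HDAC3 removes acetyl groups from many of the same sites. CREBBP is among the genes most often mutated in follicular and diffuse large B-cell lymphoma.

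Every clone came from SUDHL4 cells edited with CRISPR/Cas9 and plated by limiting dilution, so each is the progeny of 1 cell and grew as a stable line. The control clones, N4-8 and N5-8 (WT), were edited at a neutral site in PPP1R12C and keep CREBBP and EP300. The CREBBP-KO clones are CBP-E13-5, whose protocol names a guide against exon 15 although its name carries 13, and CBP-E20-9, with a guide against exon 20. Loss of the protein was checked by the submitters with sequencing and western blot, and EP300 was not targeted in these 4 clones. The 2 EP300-KO clones of the series, P300-E17-17 and P300-E24-5, entered the estimate of the spread between clones, the joining of peaks, the filters on covered length and the equal list length, and their values are given beside some results. Clones of a genotype differ in guide and in founder cell, so a p-value here measures the spread between clones. H3K27ac over CREBBP does not show whether the gene was disrupted: CREBBP with 20 kb on each side had 2227 and 1740 covered bases in the WT clones and 1551 and 1876 in CBP-E13-5 and CBP-E20-9.

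A peak list gives the start and end of each peak, so the measure is the number of bases covered by peaks and not the height of the signal. The labels give only an average read number for all samples, so the depth behind each list is unknown. As a check of the cell type, the B-cell markers MS4A1, CD79A, CD79B, PAX5, BLK and CD22 and the germinal-centre markers BCL6, MME and S1PR2 each had a peak within 5 kb in all 6 lists. Of 12 markers of T cells, myeloid cells, liver, epithelium and red cells, 10 had none in any list. The exceptions were CD3E, with 6428 and 5246 covered bases in WT and 4392 and 5628 in CREBBP-KO, and LYZ, with 151 and 91 in WT and 51 and 104 in CREBBP-KO.

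The total amount of acetylated sequence did not separate the genotypes, and the CREBBP-KO clones differed more from each other than the groups did. N4-8 had 45483 peaks and N5-8 39377, against 34921 in CBP-E13-5 and 39763 in CBP-E20-9. Covered sequence was 32.9 and 30.4 Mb in the WT clones, 27.5 Mb in CBP-E13-5 and 34.1 Mb in CBP-E20-9, the lowest and the highest of the 4. The difference of the means, CREBBP-KO minus WT, was -0.901 Mb with SDs of 1.77 and 4.70 Mb (n = 2 each, exact two-sided permutation p = 1). It was 0.353 Mb without N4-8 and -2.15 Mb without N5-8, and 2.42 Mb without CBP-E13-5 and -4.22 Mb without CBP-E20-9, so its direction rests on single clones. For peak number the difference was -5088 (p = 0.667, the same exact permutation test), and -8141 to -2035 when each clone was left out. Median peak width was 427 and 458 bases in WT and 467 and 493 in CREBBP-KO, groups that did not overlap, at p = 0.333 in the exact permutation test, the smallest that 2 clones against 2 allow.

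Joining peaks that shared a base over the 6 lists gave 47344 regions, and 1 covered base was enough to count a region as present in a clone. Of the 29296 regions found in both WT clones, 24606 were also in both CREBBP-KO clones. A region was called lost if both WT clones and neither CREBBP-KO clone had it, which held for 1460 (4.98%). The reverse, gained, held for 587 of the 26811 regions found in both CREBBP-KO clones (2.19%). The knock-outs were far from alike when each was taken alone. CBP-E13-5 lacked 4461 of the WT regions (15.2%, Wilson 95% interval 14.8 to 15.6%) and had 1044 regions that neither WT clone had. CBP-E20-9 lacked 1689 (5.77%, 5.50 to 6.04%) and had 3808 of its own. These intervals cover counting over regions only and treat regions as independent.

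The balance of losses and gains differed between the lists as deposited and lists of equal length. When each list was limited to its 33969 best-scoring peaks, the length of the shortest of the 6, 857 regions were lost and 1109 gained in both knock-out clones, so the direction of the balance turned round. CBP-E13-5 alone then lacked 2316 and gained 2019, and CBP-E20-9 alone lacked 1139 and gained 3455, so the knock-out clones still differed from each other. At that length the lowest score still listed was 34 in N4-8, 29 in N5-8, 25 in CBP-E13-5 and 30 in CBP-E20-9, and a peak below it counts as absent.

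**Figure D1:**
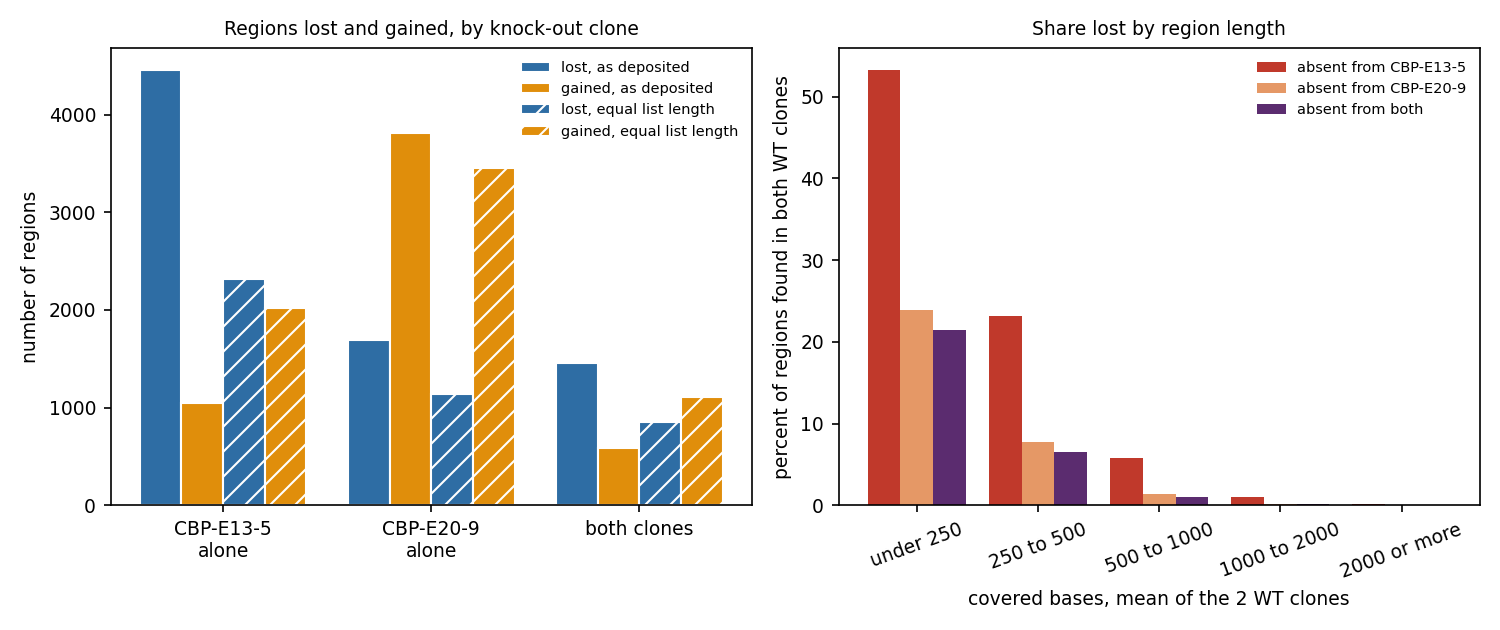
Left, number of regions lost (in both WT clones, not in the knock-out) and gained (the reverse) for each CREBBP-KO clone alone and for both, as deposited and at equal list length (hatched). Right, percent of the regions of both WT clones that were absent from each knock-out clone and from both, by mean covered bases in WT; the shares fall from 53.3% and 23.9% under 250 bases to 0.166% and 0 at 2000 bases or more.

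Lost regions were short, and long regions were kept. Among WT regions under 250 covered bases, 53.3% were absent from CBP-E13-5, 23.9% from CBP-E20-9 and 21.4% from both. From 1000 to 2000 bases these shares were 1.04%, 0.212% and 0.163%. Of the 3612 regions of 2000 bases or more, 6 were absent from CBP-E13-5 and none from CBP-E20-9. The median lost region covered 218.75 bases in WT and the median gained region 215 bases in CREBBP-KO, against 776.25 for regions kept in all 4 clones, and only 10 lost and 7 gained regions reached 1000. The median distance to the nearest kept region was 3.00 kb for lost and 1.07 kb for gained regions, and 0.497 kb from one kept region to the next. Of the lost regions 13.4% lay in a wide WT domain, a stretch of peaks at most 12.5 kb apart with at least 10 kb covered, against 17.7% of the gained and 18.5% of the kept regions. Short regions were absent most often from the clone with the shortest list, and the part of list length in these shares was not tested beyond the lists of equal length above.

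Covered bases per region were then compared with limma on log2(covered bases + 100), centred per clone, over the 19256 regions that reached 500 bases in 2 or more clones. A single region passed a Benjamini-Hochberg adjusted p of 0.05. It was lower in CREBBP-KO (0.00519% of the regions tested), and 0 were higher. At an unadjusted p under 0.05 there were 913 lower (4.74%) and 796 higher (4.13%). The count depended on how the spread was estimated: with 1 common value of the spread in place of a trend with covered length, limma called 36 lower (0.187%) and 21 higher (0.109%). In 3399 of the regions tested (17.7%) both CREBBP-KO clones lay below both WT clones, and in 3106 (16.1%) above them, so groups that do not overlap are common in these lists.

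The region that passed lay over the start of TRIM52, a gene for a RING-type ubiquitin ligase of the tripartite motif family, at chr5:180687558-180689185. Its H3K27ac peak had 1590 bases in N4-8 and 1628 in N5-8, with scores of 138 and 139 on the authors' own scale to 170, and was listed at 0 in both CREBBP-KO clones. Both EP300-KO clones had it, at 1565 and 1581 bases. The log2 difference, CREBBP-KO minus WT, was -4.06 (SE 0.16, adjusted p = 0.0145 by limma), a size that depends on the pseudocount where a group is at 0. Its long neighbours were kept: the region at chr5:180669392-180671811 had 2420 and 2204 bases in WT and 2236 and 2333 in CREBBP-KO, and that at chr5:180672907-180674238 had 1311 and 1201 against 1030 and 1158. A short peak next to the start, at chr5:180686893-180687299, had 342 bases in N4-8, 160 in CBP-E20-9 and 207 in 1 EP300-KO clone, and was listed at 0 in N5-8 and CBP-E13-5. The call passed in 9 of 15 alternatives and missed the threshold in a limma fit of the 4 clones alone (adjusted p = 0.257) and in limma fits without N4-8, without either of the CREBBP-KO clones and without either of the EP300-KO clones (0.0503 to 0.172).

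The TRIM52 sequence that the WT peaks lay over is given as the 250 bases before its start (RefSeq, GRCh38.p14, chr5:181261144-181261393, minus strand), because it is the only promoter with a change that passed. It holds neither CCAAT nor its reverse complement ATTGG, searched on both strands, which 32.0% of 35116 RefSeq promoters hold in the same stretch, and so no letter is in capitals. It has 23 CG pairs, against a median of 11 over all these promoters.
TRIM52: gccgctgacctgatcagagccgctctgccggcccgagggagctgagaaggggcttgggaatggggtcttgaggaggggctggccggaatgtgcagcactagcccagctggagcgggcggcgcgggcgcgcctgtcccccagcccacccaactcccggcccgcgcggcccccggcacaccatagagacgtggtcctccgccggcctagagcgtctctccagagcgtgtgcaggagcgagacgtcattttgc

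**Figure D2:**
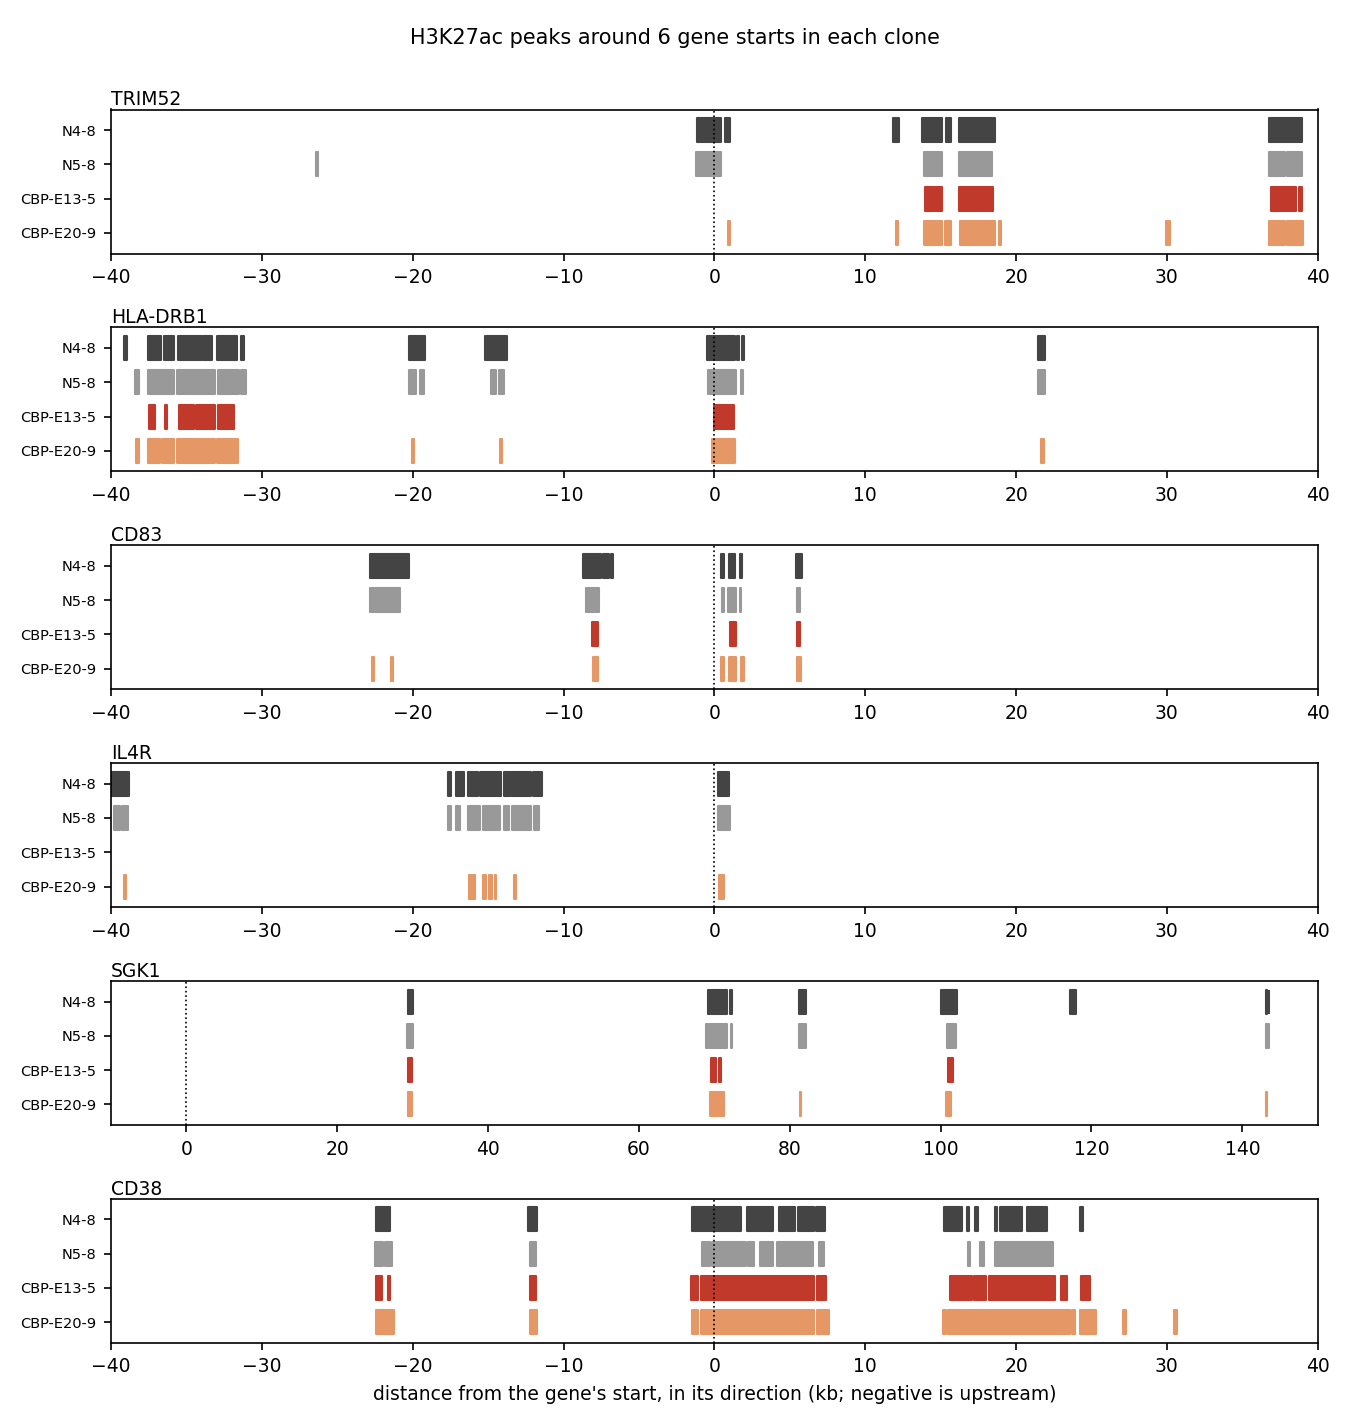
H3K27ac peaks of the 2 WT and 2 CREBBP-KO clones around the starts of TRIM52, HLA-DRB1, CD83, IL4R, SGK1 and CD38 (bars are peaks; the axis is the distance from the gene's start in its own direction, in kb). The TRIM52 start peak of 1590 and 1628 bases in WT is missing from both knock-outs, and the CD38 block within the gene, 4491 and 4300 bases in WT, reaches 7013 and 8266 in the knock-outs.

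The other lost regions with the most covered bases lay beside genes of several kinds, and none of them passed the adjusted threshold (limma adjusted p from 0.154 to 0.321). The largest after TRIM52 was at chr6:14276363-14277986, 139 kb downstream of CD83, a light zone marker, with 1588 and 1263 bases in WT. A region at chr6:7912486-7914098, 1 kb upstream of TXNDC5, an endoplasmic reticulum disulphide isomerase, had 1613 and 648. A region within RNF169, a ring finger protein of the DNA damage response, at chr11:74480865-74482124, had 975 and 1110. One at chr3:127554895-127556002, 13 kb beside MGLL, a lipase, had 912 and 1108. The other regions lay in NLRP4, an inflammasome family gene (1464 and 723), 63 kb upstream of EPHA4, an Eph receptor (1648 and 525), in NEDD4L, a ubiquitin ligase (1785 and 322), 162 kb downstream of HLX, a homeobox gene (1324 and 714), and at chr18:56848-58362, where no gene of the position list lies (1395 and 996). The WT clones themselves were far apart at NEDD4L and EPHA4, and close together at TRIM52, RNF169 and MGLL. Every region of this paragraph was listed at 0 in both CREBBP-KO clones, as the rule for lost regions requires.

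Among gained regions the largest lay within L3MBTL4, a member of the family of proteins that bind methylated lysines of histones, at chr18:6254491-6257034. It was listed at 0 in both WT clones and had 1546 bases in CBP-E13-5 and 1101 in CBP-E20-9, and 2531 and 2420 in the EP300-KO clones. The log2 difference was 3.85 (SE 0.25) and missed the threshold (limma adjusted p = 0.0717, and from 0.0177 to 0.339 over the alternatives). Next were regions within the kinase gene WNK2 (1361 and 1143 bases), within MTSS1, which codes for a protein that bends membranes (1430 and 1066), and within MAPKAP1, a subunit of the mTOR complex 2 (603 and 1729). A region in ZCCHC7, the neighbour of PAX5 and a gene of a zinc finger protein, had 333 and 1827. Near ETS2, a transcription factor gene, a region 28 kb downstream had 837 and 1165. Those 62 kb beside PFN2, a profilin, 57 kb upstream of MTF2, a partner of Polycomb complex 2, and at chr2:89213522-89214408 in the immunoglobulin kappa variable cluster, chosen by the same rule, had 1611 and 172, 804 and 804, and 756 and 887. None of these passed (limma adjusted p from 0.154 to 0.448 for those tested). The EP300-KO clones had 393 and 447 bases at MAPKAP1, 836 and 424 near ETS2 and 4077 and 3014 near PFN2. They had 0 and 155 at WNK2 and 0 and 217 in the kappa cluster, and were listed at 0 at MTSS1, ZCCHC7 and MTF2.

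Regions kept in all 4 clones rarely changed in width. Of 24606, 100 were narrower by a factor of 2 or more in both CREBBP-KO clones than in either WT clone (0.406%) and 77 wider by as much (0.313%), and the median ratio of CREBBP-KO to WT over all of them was 0.987, at 0.918 for CBP-E13-5 and 1.05 for CBP-E20-9. With at least 2000 covered bases in the higher group there were 9 narrowed and 6 widened. The most narrowed lay 1 kb upstream of EFNA3, the gene of an ephrin ligand, at chr1:155047592-155050228. It had 2555 and 2185 bases in WT and 234 and 177 in CREBBP-KO (log2 difference -2.98, SE 0.20, limma adjusted p = 0.0717), and 851 and 937 in the EP300-KO clones. The clones of each genotype lay close together and the groups were far apart, but the threshold was missed.

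Upstream of STIM2, a calcium sensor of the endoplasmic reticulum, the region at chr4:26827573-26834401 had 4142 and 6719 bases in WT and 734 and 1239 in CREBBP-KO (limma adjusted p = 0.158). A region 4 kb upstream of TXNDC5, next to the lost one, had 3565 and 2519 against 217 and 1220. At 14 kb from CBX8, a Polycomb protein, the region at chr17:77784767-77787008 had 2242 and 2143 against 614 and 556 (limma adjusted p = 0.154). The fifth, at chr3:187808965-187811186, lay 61 kb upstream of LPP on the side of BCL6, the master repressor of the germinal centre, and had 2220 and 2202 against 555 and 682 (limma adjusted p = 0.408). The groups did not overlap in these 5 regions, which the rule for narrowed regions requires. In each of the 5 the EP300-KO clones also lay below both WT clones, and upstream of STIM2 both were listed at 0.

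The most widened region lay 30 kb upstream of TMX1, which codes for a thioredoxin-like protein of the endoplasmic reticulum, at chr14:51672656-51676752. It had 273 and 907 bases in WT and 2980 and 4097 in CREBBP-KO (limma adjusted p = 0.25). A region 2 kb upstream of HNRNPLL, a splicing regulator of the CD45 gene, at chr2:38831761-38834951, had 353 and 786 against 3073 and 2820 (limma adjusted p = 0.19). Regions 17 kb beside SOCS2, a suppressor of cytokine signalling, and within CLIP4, a CAP-Gly domain protein, and PTPRJ, a receptor tyrosine phosphatase, widened 3.07, 2.78 and 2.72 times. PTPRJ had 696 and 1368 bases in WT and 2819 and 2795 in CREBBP-KO. The groups did not overlap in these regions, which the rule for widened regions requires, and none passed the adjusted threshold. The EP300-KO clones also lay above both WT clones near TMX1 (1483 and 1927), at CLIP4 (2559 and 1917) and at PTPRJ (2152 and 2104). They did not near HNRNPLL (482 and 517) and SOCS2 (144 and 421).

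**Figure D3:**
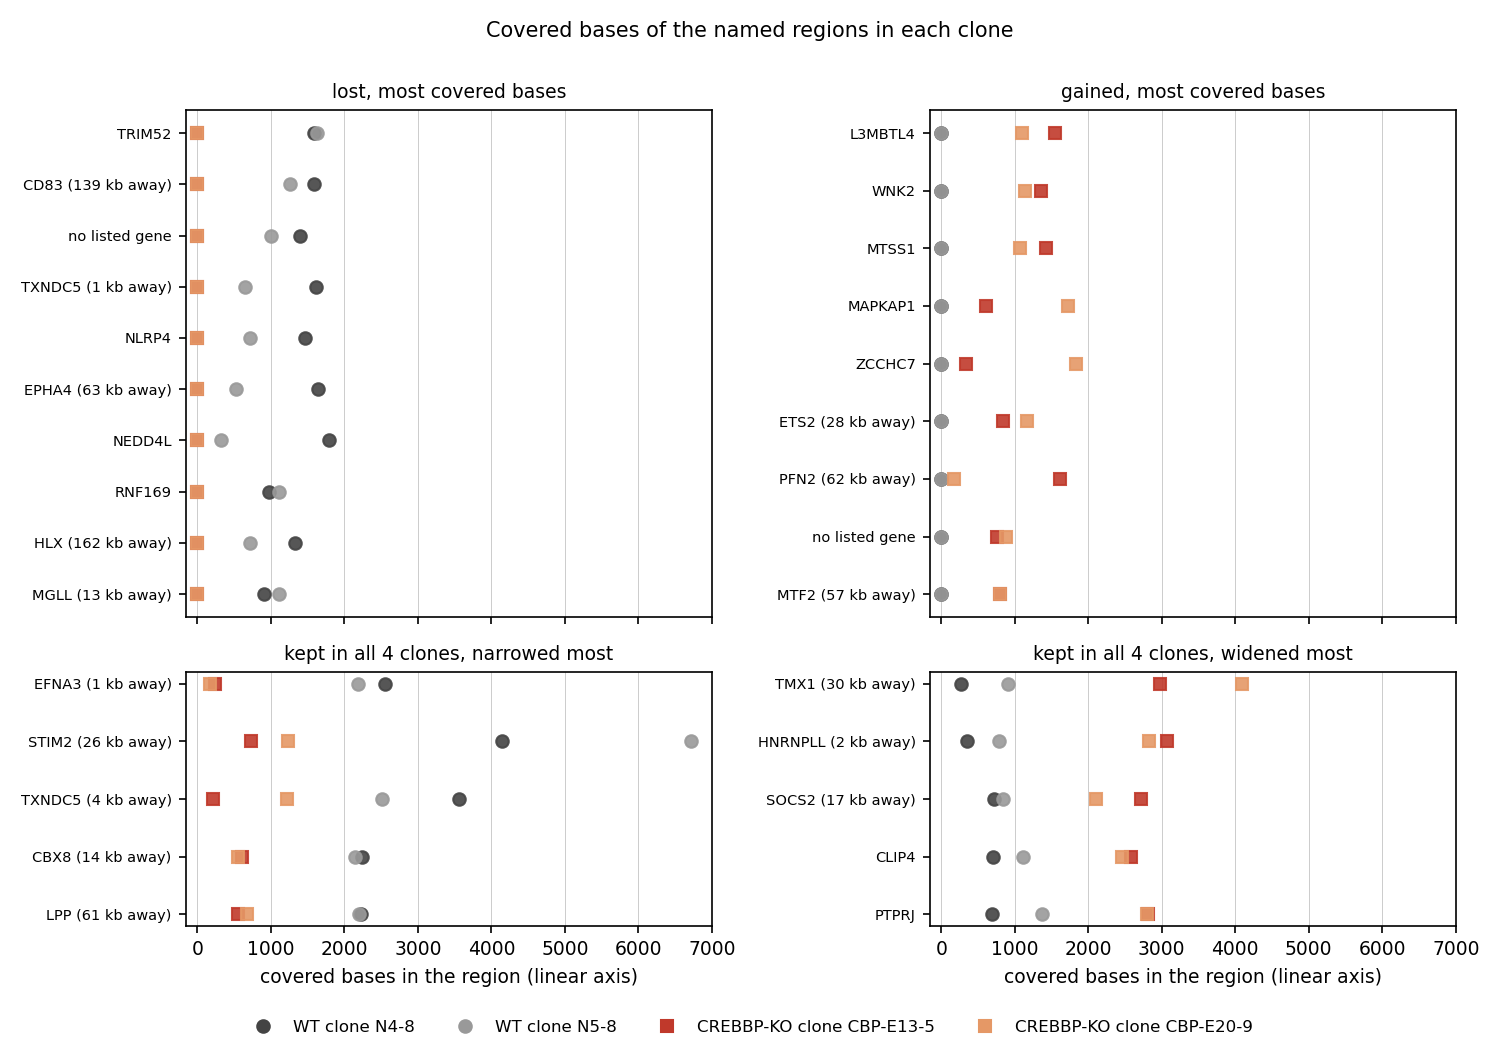
Covered bases of the regions named by rule, in each clone: the lost and gained regions with the most covered bases, and the 5 most narrowed and 5 most widened of those kept in all 4 clones (circles WT, squares CREBBP-KO). Labels give the gene of the position list at or nearest the region, and an unlisted gene may lie closer. TRIM52 and the kept regions beside EFNA3 and CBX8 show WT clones close together, while NEDD4L and EPHA4 show WT clones far apart.

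Gene lists of germinal-centre biology were read over each gene and 20 kb on each side. Of 84 genes 75 had peaks in at least 2 of the 4 clones; both CREBBP-KO clones lay below both WT clones at 14 (18.7%) and above them at 7 (9.33%). Over all 6752 windows of 100 kb that were tested these shares were 18.4% and 11.2%, near those of the lists as a whole. Among the 1988 windows with at least 5 kb covered in a group they were 13.4% and 14.8%, so the comparison depends on the windows taken. At the 71 genes with at least 1000 bases in WT the median ratio of CREBBP-KO to WT was 0.983, at 0.895 for CBP-E13-5 and 1.07 for CBP-E20-9, beside 0.960 over all windows. No region at any of these loci passed the adjusted threshold.

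Genes of MHC class II, the molecules that present antigen to helper T cells, held the lowest single ratios of the loci with at least 1000 covered bases in WT, 0.0833 at HLA-DRA and 0.395 at HLA-DRB1. The median of the list was 0.894, beside 0.960 over all windows tested. By clone it was 0.756 for CBP-E13-5 and 1.01 for CBP-E20-9, beside 0.868 and 1.05 over the windows, so CBP-E20-9 alone showed no lower median. Of the 14 genes, 9 had peaks, and 4 of those were lower in both knock-out clones, 1 higher and 4 overlapped, beside the 18.4% lower and 11.2% higher of all windows. HLA-DRA, the common alpha chain of HLA-DR, had 1515 and 610 covered bases in WT, 0 in CBP-E13-5 and 177 in CBP-E20-9. HLA-DRB1, its beta chain, had 4821 and 3556 in WT and 1353 and 1960 in CREBBP-KO. CD74, the invariant chain that guides class II molecules to the endosome, had 10204 and 7410 against 6229 and 7093, and HLA-DOB had 344 and 314 against 0 and 176. In each of these 4 the groups did not overlap, although at CD74 the gap between them was small. The EP300-KO clones also lay below both WT clones at HLA-DRA (139 and 226), HLA-DRB1 (1156 and 1285), CD74 (5479 and 6210) and HLA-DOB (139 and 119).

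The rest of the class II list did not follow. IFI30, a thiol reductase of antigen processing, had 7857 and 7936 in WT and 8192 and 9485 in CREBBP-KO. CIITA, the master activator of class II genes, had 16249 and 15224 against 13840 and 16346, and RFX5, a factor on class II promoters, had 3105 and 3227 against 2919 and 3308. At HLA-DQA1 (13334 and 14681 against 9881 and 13817) and HLA-DQB1 (8643 and 9174 against 7171 and 9611) CBP-E13-5 was low and CBP-E20-9 was within the WT range or above it. HLA-DMA, HLA-DOA, HLA-DPA1 and HLA-DPB1 had no peak in any of the 4 clones, and HLA-DMB had 123 bases in N5-8 alone. HLA-DR and HLA-DQ genes have close copies that vary between haplotypes, so reads may be placed unevenly among them, and the flanks of neighbouring loci overlap.

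Single regions of the class II loci are given upstream of HLA-DRB1 and at the starts of HLA-DRB1 and HLA-DQA1, chosen after their values were seen. A region 14 kb upstream of HLA-DRB1, at chr6:32571761-32573187, had 1427 and 637 bases in WT, 0 in CBP-E13-5 and 150 in CBP-E20-9 (log2 difference -2.71, SE 0.67, limma adjusted p = 0.35). Its neighbour at chr6:32577186-32578230 had 1043 and 722 against 0 and 146. The region over the HLA-DRB1 start, chr6:32556583-32558503, had 1869 and 1817 against 1353 and 1513 (-0.31, SE 0.09, limma adjusted p = 0.429). That over the HLA-DQA1 start, chr6:32603294-32607631, had 3917 and 3988 against 2380 and 3311 (-0.44, SE 0.11, limma adjusted p = 0.342). Both start regions were kept and narrower in both knock-out clones, without passing the threshold. The EP300-KO clones were listed at 0 in both upstream regions, and were also narrower than both WT clones in both start regions.

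The promoters under these start regions are printed because class II promoters share short boxes that CIITA-bound complexes read, of which the Y box holds the letters ATTGG. Each is the 250 bases before the gene's start (RefSeq, GRCh38.p14), HLA-DRB1 from chr6:32589849-32590098 on the minus strand and HLA-DQA1 from chr6:32637156-32637405 on the plus strand. CCAAT and its reverse complement ATTGG, searched on both strands, are in capitals. Each promoter holds 2 matches and has 1 CG pair, while 32.0% of all RefSeq promoters hold at least 1 match; a match describes the letters only.
HLA-DRB1: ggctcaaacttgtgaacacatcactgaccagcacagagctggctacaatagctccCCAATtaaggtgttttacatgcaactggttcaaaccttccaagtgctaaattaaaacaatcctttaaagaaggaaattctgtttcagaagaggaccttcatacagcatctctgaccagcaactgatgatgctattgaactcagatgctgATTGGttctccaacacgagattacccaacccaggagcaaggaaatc
HLA-DQA1: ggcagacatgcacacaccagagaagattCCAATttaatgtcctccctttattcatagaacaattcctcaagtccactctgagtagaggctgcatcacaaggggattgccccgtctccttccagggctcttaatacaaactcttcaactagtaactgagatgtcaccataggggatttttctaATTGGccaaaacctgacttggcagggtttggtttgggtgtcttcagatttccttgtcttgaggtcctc

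Genes of the light zone, where germinal-centre B cells are selected by T-cell help and by signals of CD40 and NF-kB, gave 7 of 18 lower, 1 higher and 10 overlapping, beside 18.4% lower and 11.2% higher over all windows tested. CD83 had 2936 and 1851 bases in WT, 960 and 1477 in CREBBP-KO and 1327 and 1167 in EP300-KO. Its ratio of CREBBP-KO to WT was the lowest of this list among genes with at least 1000 bases in WT (0.509). Its upstream region at chr6:14108306-14109481 had 1176 and 851 against 346 and 331 (log2 difference -1.29, SE 0.21, limma adjusted p = 0.192). A longer one outside the 20 kb flank, at chr6:14094142-14096736, had 2593 and 2022 bases in WT, 0 in CBP-E13-5 and 271 in CBP-E20-9 (limma adjusted p = 0.321). With the lost region 139 kb downstream, 3 regions upstream and downstream of CD83 were lower in both knock-outs, and none passed. In each of these 3 the EP300-KO clones also lay below both WT clones. The rule for lost regions fixes the direction downstream, and the upstream regions were chosen after their values were seen. Of all regions tested 17.7% were lower in both knock-outs. The regions over the CD83 start and within the gene overlapped, the longest with 441 and 528 against 432 and 472.

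SLAMF1, a co-receptor of activated lymphocytes, had 10030 and 8270 in WT, 4499 and 7144 in CREBBP-KO and 1385 and 1398 in EP300-KO. NR4A1, an immediate early nuclear receptor of antigen receptor signalling, had 5682 and 4948 against 2920 and 3862. EGR3 (2233 and 2016 against 1507 and 1637) and EGR1 (1636 and 1442 against 1358 and 1279), transcription factors of the same response, were also lower in both knock-outs, whereas EGR2 overlapped (1101 and 978 against 1007 and 1037). BCL2A1, a survival gene under NF-kB, was lower as well, at 3236 and 2969 against 2732 and 2662. So was TNFAIP3, a brake on NF-kB, at 575 and 355 against 183 and 325. At CD83, SLAMF1, NR4A1, EGR3, BCL2A1 and TNFAIP3 the EP300-KO clones also lay below both WT clones, but not at EGR1 (1626 and 1485). MYC (6937 and 6267 against 6071 and 6366), CD40 (3255 and 2924 against 2874 and 3044), CD86 and TRAF1 overlapped. BATF was the gene higher in both knock-outs, with 176 and 0 against 194 and 412, a level close to that of a single short peak.

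Dark zone genes, active where the cells divide and mutate their antibody genes, included FOXO1, CXCR4, S1PR2, GNA13 and BACH2, and at each of these the groups overlapped. FOXO1, a transcription factor of the dark zone, had 44118 and 41131 in WT against 39854 and 45380 in CREBBP-KO, and CXCR4, the chemokine receptor that holds cells there, had 6347 and 5141 against 3735 and 6782. Of 14 genes of B-cell receptor signalling 13 overlapped, and the kinase gene SYK was higher (20562 and 20442 against 21852 and 23625). Of 14 B-cell transcription factor genes 12 overlapped. Over all windows tested the groups overlapped in most as well, with 18.4% lower and 11.2% higher. POU2F2 (14914 and 14816 against 15280 and 18378) and ETS1 (18297 and 17114 against 18533 and 24043) were higher in both knock-outs, with CBP-E13-5 only just above WT. BCL6 had 10580 and 10331 against 10256 and 10595, nearly equal in the 4 clones.

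CD38, a surface enzyme of germinal-centre and plasma cells, had the highest ratio (1.45) of the listed loci with at least 1000 covered bases in WT. Its locus had 13015 and 11538 covered bases in WT and 16527 and 19055 in CREBBP-KO, and 9855 and 10782 in EP300-KO. The largest part of the difference lay in the gene body, in a region at chr4:15795180-15803569. This region had 4491 and 4300 bases in WT and 7013 and 8266 in CREBBP-KO (log2 difference 0.82, SE 0.08, limma adjusted p = 0.142). The EP300-KO clones had 5442 and 5048 bases there, above both WT clones. The region over the gene's start, chr4:15778481-15786620, had 7133 and 6432 against 7887 and 7949 (limma adjusted p = 0.711). The groups overlapped in neither region, and neither passed. The other plasma cell genes gave no such value: IRF4 and PRDM1 had no peak in any of the 4 clones, and XBP1 had 371 bases in N4-8 alone.

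Of 6 genes recurrently altered in these lymphomas only B2M, the light chain of MHC class I, did not overlap, with 8070 and 7420 in WT and 5898 and 7391 in CREBBP-KO. Both knock-out clones also lay below both WT clones in 18.4% of all windows tested, and above them in 11.2%. Groups that do not overlap are therefore common in these lists, and B2M does not set this gene list apart. Among the acetylation genes EP300 was lower in both knock-outs by a small margin (3221 and 3187 against 2982 and 3153). HDAC3, KAT2A, KAT2B and CREBBP itself overlapped. PPP1R12C, the site edited in the WT clones, had 4211 and 3465 against 4063 and 4758.

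**Figure D4:**
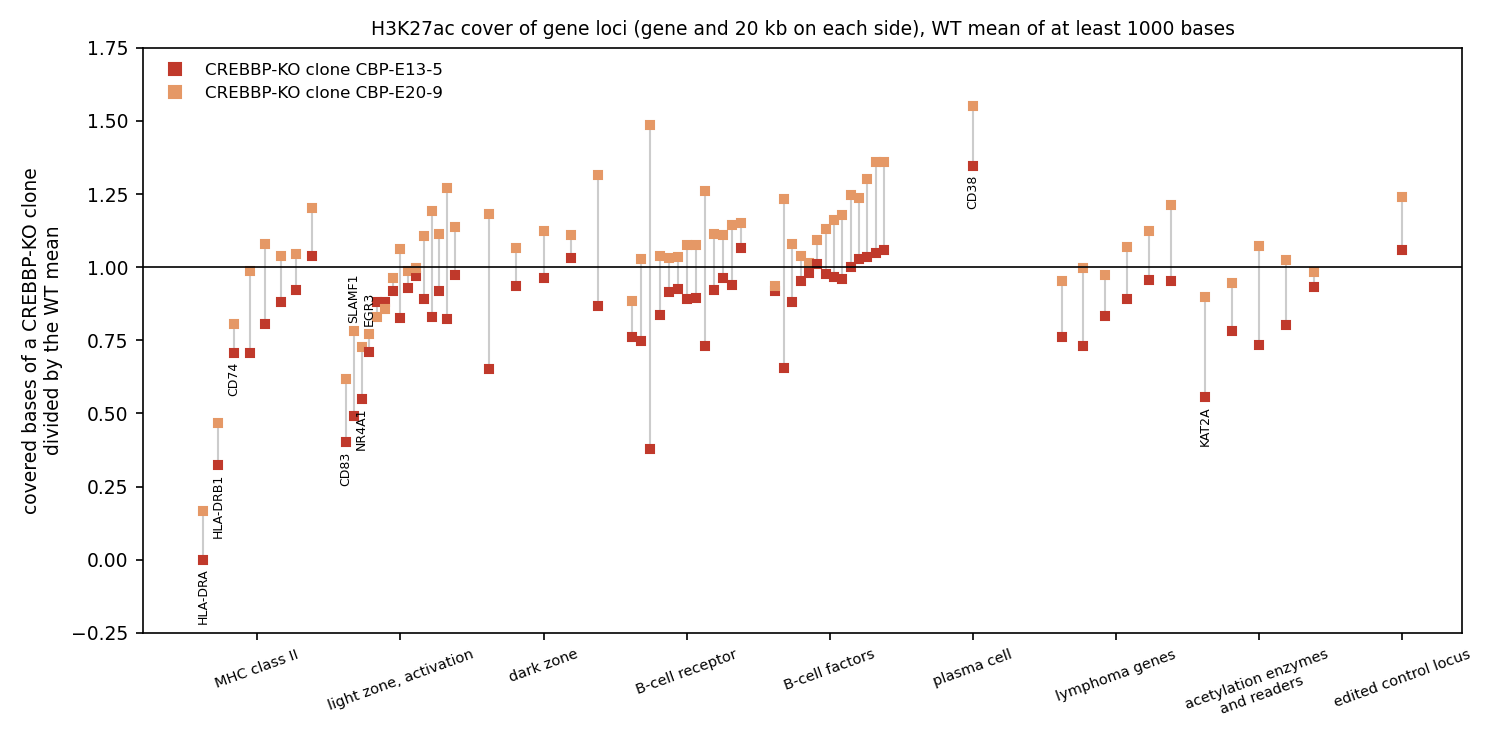
Covered bases of each CREBBP-KO clone divided by the WT mean, for genes with 20 kb on each side and a WT mean of at least 1000 bases, by gene list (a grey line joins the 2 clones of a gene; names mark mean ratios under 0.8 or over 1.3). HLA-DRA, HLA-DRB1 and CD83 lie lowest, CD38 highest, and most other genes lie around 1 with CBP-E13-5 below CBP-E20-9.

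Windows of 100 kb gave no called feature: limma called 0 of 6752 lower and 0 higher, with 410 lower and 528 higher at an unadjusted p under 0.05 (6.07% and 7.82%) and 2 lower and 2 higher (0.0296% each) when the spread was given 1 common value. Of 1988 windows with at least 5 kb covered in a group, both CREBBP-KO clones were below both WT clones in 266 (13.4%) and above them in 294 (14.8%). The windows named here were chosen after their values were seen, for the size of their log2 differences among these or for their p. Among windows with at least 5 kb covered, the lowest log2 difference was at IL4R, the receptor of the T-helper cytokine interleukin 4. Its window lies on chromosome 16 from 27.3 to 27.4 Mb. It had 7730 and 5948 bases in N4-8 and N5-8, none in CBP-E13-5 and 1597 in CBP-E20-9 (limma adjusted p = 0.266). The EP300-KO clones had 0 and 171.

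At IL4R the peaks formed a cluster upstream of the gene and a peak at its start. The longest region of the cluster, chr16:27308645-27310879, had 2090 and 1960 bases in WT, 0 in CBP-E13-5 and 924 in CBP-E20-9. Its neighbour at chr16:27311550-27312852 had 1303 and 1231 against 0 and 150 (log2 difference -3.07, limma adjusted p = 0.24). The peak at the start, chr16:27325225-27326018, had 721 and 789 against 0 and 390. The adjoining window of IL21R, the receptor of interleukin 21, had 6898 and 4722 in WT and 917 and 3496 in CREBBP-KO (limma adjusted p = 0.321). At both genes CBP-E13-5 was the lower of the knock-outs. The EP300-KO clones had 369 and 764 bases in the IL21R window.

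SGK1, a kinase gene that is often mutated in lymphoma, lay in a window on chromosome 6 from 134.5 to 134.6 Mb with 6601 and 4766 bases in WT and 1625 and 2319 in CREBBP-KO (log2 difference -1.39, SE 0.14, limma adjusted p = 0.0859). Its longest regions were lower in both knock-outs: chr6:134536829-134538934 had 2106 and 1059 bases against 615 and 652, chr6:134567281-134569527 had 2215 and 2245 against 1010 and 1547, and chr6:134556803-134557812 had 1010 and 917 against 0 and 120. None of them passed (limma adjusted p from 0.19 to 0.378). The EP300-KO clones had 2772 and 2730 bases in the SGK1 window, also below both WT clones. HVCN1, a proton channel of B cells, lay in a window with 5030 and 5285 against 923 and 2963. The window of FYN, a Src-family kinase, on chromosome 6 from 112 to 112.1 Mb, had 4128 and 2798 against 310 and 136 (limma adjusted p = 0.0859), and was chosen for its p. The first 100 kb of chromosome 18, with the subtelomeric lost region, had 6284 and 6505 against 0 and 2452. In the EP300-KO clones the HVCN1 window had 1285 and 1036 bases, the FYN window 2861 and 1767, and the chromosome 18 window was at 0.

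In the other direction the CLIP4 window had 3478 and 2930 bases in WT and 5669 and 6865 in CREBBP-KO (log2 difference 1.04, SE 0.12, limma adjusted p = 0.0859). The EP300-KO clones had 5955 and 4917 bases there, also above both WT clones. SMAD1, a transducer of bone morphogenetic protein signals, lay in a window with 1952 and 2726 against 5363 and 5056 (limma adjusted p = 0.147). A window in the immunoglobulin kappa variable cluster on chromosome 2 from 89.2 to 89.3 Mb had 2041 and 1262 against 5847 and 5275 (limma adjusted p = 0.136). The CREBBP-KO clones lay close together at SMAD1 and in the kappa cluster. The EP300-KO clones overlapped the WT clones in both windows, with 2353 and 2111 bases at SMAD1 and 1624 and 2875 in the kappa cluster.

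With a single knock-out clone against the controls, the lone clone is assumed to vary like the other groups. No region passed for either clone, of 18164 tested for CBP-E13-5 and 18981 for CBP-E20-9. CBP-E13-5 alone gave 10 windows lower (0.152%) and 1 higher (0.0152%) in limma, and CBP-E20-9 alone gave 0 of 6723 each way, with 535 windows at an unadjusted p under 0.05. In 9 of the 10 lower windows CBP-E20-9 kept peaks, with 1451 to 3441 covered bases. On chromosome 9 from 116.2 to 116.3 Mb N4-8 and N5-8 had 4355 and 4020 bases, CBP-E13-5 had 0 and CBP-E20-9 had 3441 (log2 difference -5.17, limma adjusted p = 0.0107). On chromosome 3 from 159.8 to 159.9 Mb the values were 3239, 2731, 0 and 2583 in the same order. The higher window, on chromosome 20 from 53.7 to 53.8 Mb, had 3421 bases in CBP-E13-5 and none in N4-8, N5-8 and CBP-E20-9, while the EP300-KO clones had 4887 and 4643. The exception on chromosome 4 from 80.5 to 80.6 Mb was at 0 in both knock-out clones and had 1676 and 1832 bases in WT.

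Wide domains numbered 508 and 467 in the WT clones, 404 in CBP-E13-5 and 589 in CBP-E20-9, and 347 of 644 were found in all 4. Of the 420 in both WT clones, 7 were in neither knock-out (1.67%), and of the 396 in both knock-outs 21 were in neither WT clone (5.3%). CBP-E13-5 alone lacked 73 and CBP-E20-9 alone 7. The largest difference among lost domains was over LIMS1, an adaptor of cell adhesion sites, with 15.5 and 15.1 kb covered in WT and 9.30 and 8.27 kb in CREBBP-KO. The next, between BCL6 and LPP at chr3:187802196-187841552, had 14.6 and 13.1 kb against 8.53 and 9.32 kb, and holds the narrowed region described above. WASF2, an actin regulator (12.8 and 10.3 against 6.36 and 8.24 kb), JUNB, an AP-1 factor (10.5 and 11.2 against 8.05 and 9.75 kb), and IER2, an immediate early gene (11.0 and 10.0 against 7.62 and 9.66 kb), followed. Peaks remained in every one of these. At JUNB and IER2 CBP-E20-9 lay just under the 10 kb limit and CBP-E13-5 further below it.

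Among gained domains the largest difference was over HNRNPLL, with 4.76 and 7.70 kb in WT and 11.2 and 12.8 kb in CREBBP-KO, which includes the widened region upstream of the gene. PSMA8, a proteasome subunit, had 8.67 and 9.26 against 11.6 and 15.4 kb. LRRTM4, a synaptic adhesion protein, had 7.12 and 7.99 against 11.6 and 12.2 kb. GALNT7, an enzyme of O-glycosylation, had 9.16 and 9.42 against 13.6 and 13.4 kb, and RFC3, a subunit of the DNA clamp loader, 8.42 and 8.94 against 12.0 and 12.9 kb. In all 21 gained domains both knock-out clones covered more than both WT clones, and in 6 of the 7 lost domains less. The 10 kb limit in the rule for domains largely fixes these directions, so they are no separate result. The exception among lost domains was CD52, a lymphocyte surface protein, with 16.5 and 15.1 against 12.8 and 16.2 kb. There the cover of the knock-outs lay in shorter stretches.

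Losses were spread over the chromosomes. The share of WT regions lost in both knock-outs ran from 3.92% on chromosome 17 to 7.18% on chromosome 18, with 6.66% on chromosome 6 and 6.14% on chromosome 3. CBP-E13-5 lacked more than CBP-E20-9 on each of the 22 chromosomes. Chromosome 16, which carries CREBBP, IL4R and IL21R, held 3.99% and 3.65% of the covered bases in WT and 3.56% and 3.62% in CREBBP-KO. On chromosome 6, which carries HLA-DRB1, CD83, SGK1 and FYN, the shares were 5.34% and 5.23% against 5.13% and 5.14%. The groups did not overlap on 12 chromosomes, 5 with the knock-outs lower and 7 with them higher, and the differences of the means did not exceed 0.23 percentage points in size.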

How the data were processed

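The 4 clones and the 2 EP300-KO clones each have a peak list called against its own input, per the file headers, which also name the settings p15 and md100 without explaining them. Per the submitters' processing notes, hg19 was the build and CASAVA 1.8, Bowtie2 2.1.0 and SAMtools 0.1.19 were used. No source used here names the program that called peaks. The deposited score per peak is the authors' own and has no stated meaning. It served to rank peaks within a list and, in an alternative setting, as a cutoff of at least 30 in every list. The base of the start positions is unstated and was taken as 0, so printed starts may be off by 1.

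Peaks were joined where they shared a base. limma 3.58.1 (R 4.3.3) was fitted to log2(covered bases + 100) over all 6 clones, with regions of at least 500 and windows of at least 1000 bases in at least 2 clones. The spread was shrunk towards a trend with covered length, a choice made with the outcome without the trend known too. The fit was tested on simulated data. The pseudocount shrinks differences of short regions.

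The members and gene lists were chosen with earlier results of these data known. Named were the called regions, the 10 lost and 10 gained regions with most covered bases, the 5 most narrowed and widened of at least 2000 bases, the 5 domains each way with the largest difference, and the listed genes; single regions within listed loci, and all others, were chosen after their values were seen. Some items these rules name are not reported here. Gene positions on hg19 are general knowledge and in no file used here; the chromosomes of all 163 genes were the same in the GRCh38 gene table. Regions were named only by genes of this list, so an unlisted gene may lie closer to a region. Distances to genes are rounded to 1 kb.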

Additional observations from a re-analysis of the deposited data

How the results depend on the processing

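The counts moved with the clones left out and with list length, and so did the difference in covered sequence, which changed sign (-4.22 to 2.42 Mb when each clone was left out). Over 93 named regions and windows, 1309 alternative fits gave no reversed direction; 62 passed the threshold where the reported fit did not, and 6, all for TRIM52, no longer passed. The named regions and windows were mostly chosen for large differences, small p or groups that do not overlap. The lack of reversed directions was therefore largely fixed in advance. Lost regions were 857 at equal list length and 772 when peaks up to 500 bases apart were joined, and gained regions 1109 and 219. Leaving out each clone gave 1689 to 7469 lost and 1044 to 3808 gained. The knock-out clone CBP-E20-9 left out gave 4461 lost and 1044 gained, CBP-E13-5 left out 1689 and 3808, N4-8 left out 2563 and 1501, and N5-8 left out 7469 and 1291. Narrowed regions were 56 and widened 51 at a score of at least 30, 308 and 246 at 1.5 times, and widened 49 at equal length; leaving out each clone gave 143 to 1297 and 107 to 612. Domains lost were 26 and gained 32 with at least 5 kb covered, and gained 11 with gaps of 5 kb; leaving out each clone gave 7 to 73 and 22 to 94. Gene loci were lower at 14 to 59 and higher at 7 to 43 when each clone was left out. The most narrowed regions, lost domains and lower loci came without CBP-E20-9, the most gained domains and higher loci without CBP-E13-5, and the most widened regions without N5-8. For gene loci this was an alternative chosen after seeing the data, as was equal list length.

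In limma over regions, lower and higher calls were 2 and 1 with a pseudocount of 1000, 4 and 8 at equal list length, 2 and 1 with a filter of double the length, 0 lower with the 4 clones alone, 36 and 21 with no trend (added after seeing the data), and 0 to 30 lower and 0 to 202 higher when each of the 6 clones was left out. The 30 and 202 came without N5-8, so the controls then rest on N4-8 alone, and 1 higher came without N4-8. Over windows they were 1 and 1 with a pseudocount of 10 and with no centring, 2 and 2 with no trend, 1 lower with no filter, 3 higher at equal length, and 0 to 49 lower and 0 to 183 higher when each clone was left out (49 and 183 without N5-8, 10 and 1 without CBP-E20-9, 0 and 1 without N4-8). The cause was not tested. Centring moved the median of all windows from -0.06 to 0.03 (log2).

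No paired analysis was possible because the labels give the clones no numbers shared across genotypes; the replicate numbers were assigned in accession order. Depth is unknown, so absence of a peak does not show absence of acetylation, and the smallest exact permutation p for 2 clones against 2 is 0.333. The sample-level tests of outliers need at least 4 samples a group and were not run.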
